A study of Mus musculus with 28 samples.

Results

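Axon guidance ligands and their receptors were followed through the conversion of mouse fibroblasts into induced neural stem cells. The genes were matched by symbol in the deposited expression table, and the families were chosen with earlier results of these data known. They were semaphorins, plexins, the neuropilins Nrp1 and Nrp2, ephrins, Eph receptors, Slit ligands, Robo receptors, netrins, and the netrin receptors of the Unc5 family and Dcc. In all 59 of the 17295 genes of the table matched, namely 17 semaphorins, 9 plexins, 2 neuropilins, 7 ephrins, 12 Eph receptors, 3 Slit ligands, 2 Robo receptors, 3 netrins and 4 genes of the group of Unc5 receptors and Dcc. Of these, 57 averaged 10 or more across the libraries and were tested, and Epha6 and Slit1 fell under that minimum. A further 11 protein-coding genes of the same names in the GENCODE M21 annotation were not analysed here.

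Messenger RNA had been sequenced from 28 libraries in 14 groups of 2. The 10 groups of induced neural stem cells (miNSC) came from fibroblasts carrying M2rtTA and doxycycline-inducible lentiviruses. Their colonies were picked and expanded on Matrigel in a neural stem cell medium with bFGF and EGF. A line is named by its factors, where F is eSox17FNV (an engineered Sox17), with the labels giving the other factors only as the letters B, K and M. From ICR embryonic fibroblasts came a BKF and a KF line, and from Sox2-GFP embryonic fibroblasts a BKF, a KF and a KMF line. Sox2-GFP mice aged 1.0 years were the source of tail-tip BKF and KMF lines, of 1 tail-tip line with all 4 factors (4F) sampled at passages 8 and 18, and of an ear 4F line. The 3 fibroblast groups, without factors, were all Sox2-GFP: tail-tip cells of 1.0-year mice, tail-tip cells of 2.5-year mice, and skin cells of 2.5-year mice. The neural stem cell (NSC) group, also without factors, held 1 library each of passages 2 and 5 from 2.5-year Sox2-GFP mice. Every miNSC library and the 1.0-year fibroblasts expressed the Y-linked gene Ddx3y (808 to 4040), and the 2.5-year fibroblasts and NSC had it at 0. Embryonic, ear and ICR fibroblasts were not analysed here, so reprogramming cannot be told apart from strain, age, tissue and donor sex in a contrast of all miNSC with all fibroblasts, which holds the X-linked members Plxnb3, Plxna3 and Efnb1.

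Guidance cues steer growing axons and migrating cells by attraction or repulsion, and they also act in blood vessels, epithelia and the stem cell niches of the brain. Semaphorins bind plexins, and the secreted class 3 semaphorins bind mostly through neuropilins. Ephrins are membrane-bound ligands of the Eph receptor tyrosine kinases, and both sides can pass a signal into their cell. Slit proteins repel cells through Robo receptors, and netrins attract through Dcc and repel through Unc5 receptors.

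The deposited values had nearly the same medians and totals in every library, with medians of 236 to 237 and totals of 15563679 to 15571626, so that the depth behind a value is unknown and a 0 carries no stated limit. Values were not corrected for gene length and are compared only within a gene. The labelled cell types were matched by their markers. The summed level of 10 fibroblast markers was 196570 to 222903 in fibroblast libraries, 184 to 2590 in miNSC and 699 to 1438 in NSC. The summed level of 10 neural stem cell markers was 223 to 343, 49866 to 130570 and 55317 to 119344 in the same order, and Sox2, Olig2, Hes5 and Sox1 were at 0 in all fibroblast libraries. Macrophage markers, 4 genes, summed to 302 to 1204 in fibroblasts, 10 to 199 in miNSC and 11 to 14 in NSC, and their part in the differences was not tested. Both libraries of a group may come from the same culture or colony, so the p-values reflect library-to-library spread alone, which may be technical. Fold changes are differences of group means of log2(value + 1), which understate the change of genes with low values, with the standard error (SE) after ±. Levels are means ± SD over the libraries, 20 of miNSC, 6 of fibroblasts and 2 of any single group. In bulk samples, fewer cells that use a gene and less of its RNA per cell cannot be told apart.

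In most members, fibroblasts differed from both neural stem cell kinds. With 10 miNSC groups set against 3 fibroblast groups, 51 of the 57 members passed the threshold, 29 higher and 22 lower in miNSC. The share of all 16275 tested genes past the threshold was 76.5%. Here the median log2 fold change was 0.44 over the members and 0.10 over all tested genes. The median absolute log2 fold change was 2.11 over the members and 0.78 over all tested genes. The values of miNSC and fibroblast libraries did not overlap in 30 of the 57 members, 15 in each direction, and in 31.9% of all tested genes. With the mean of each line as 1 sample 45 members passed, and 8757 of all 16275 tested genes. Efna3, Epha4, Ephb2, Ephb6, Plxna4 and Unc5a lost their calls. Efna4, Ntn4, Plxnd1, Sema3a, Sema4d and Sema6b did not pass. The map of all members by group shows this split as columns of opposite colour for the fibroblast groups.

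**Figure D1:**
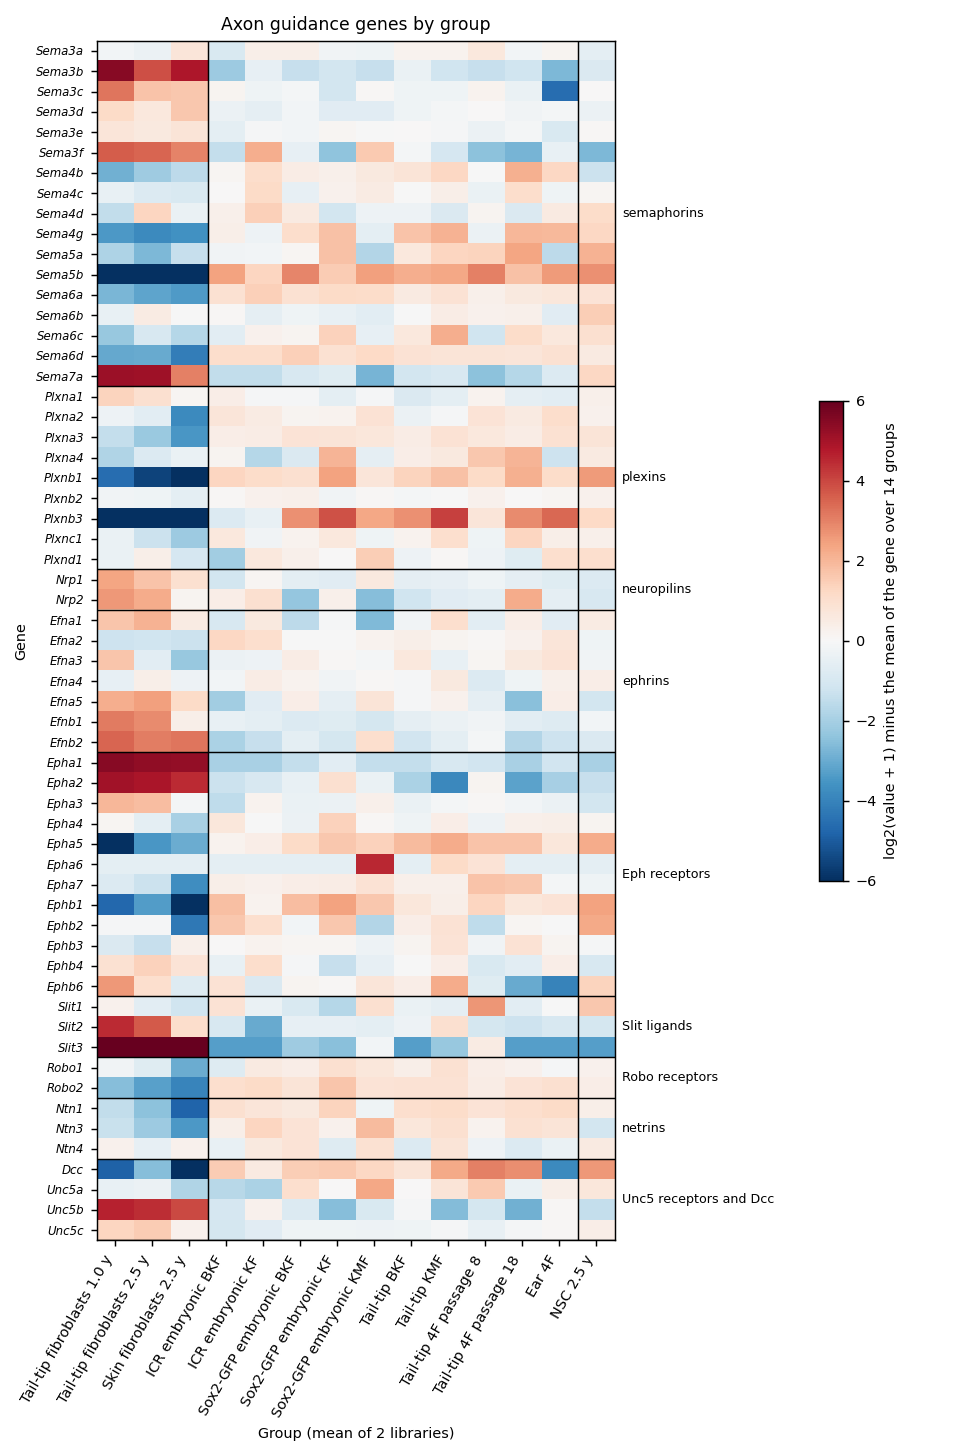
Level of each of the 59 genes (vertical axis, by family) in each of the 14 groups (horizontal axis), as the mean of 2 libraries on the log2(value + 1) scale minus the gene's mean over the groups, with colours capped at 6 in either direction. Red is above and blue below the gene's mean: Slit3, Unc5b, Epha1 and Epha2 are red in all 3 fibroblast groups, and Sema5b, Plxnb1 and Plxnb3 are blue there.

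Secreted class 3 semaphorins were lower in miNSC, with 5 of 6 past the threshold and Sema3a not. Of all tested genes, 76.5% passed, 42.8% higher and 33.7% lower. Sema3b, a secreted repellent, was at 77, 182.5 and 300 (lowest, median, highest) in the 6 fibroblast libraries and at 0, 2 and 6 in the 20 miNSC libraries. It fell by 6.06 ± 0.23 on the log2 scale (adjusted p = 1.75e-13). Sema3f, which lies 72.3 kb from Sema3b on chromosome 9 and acts mostly through Nrp2, was at 372, 528 and 601 in fibroblasts and at 5, 28 and 236 in miNSC, and fell by 4.11 ± 0.11. No miNSC library reached a fibroblast library in either gene. Sema3c (-2.85 ± 0.61), Sema3d (-1.44 ± 0.05) and Sema3e (-0.90 ± 0.11) fell as well, and Sema3a, a repellent of many axons, gave -0.03 on the log2 scale. One ear 4F library was listed at 0 for Sema3c, and the other miNSC libraries read 118 to 370. Sema7a, a membrane-anchored semaphorin, was at 76, 308.5 and 364 in fibroblasts and at 0, 3 and 6 in miNSC (log2 fold change -5.85 ± 0.23, adjusted p = 4.71e-13).

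Membrane-bound semaphorins of classes 4, 5 and 6 were higher in miNSC, 8 of 10 past the threshold and none lower. The share past the threshold was 76.5% over all tested genes, 42.8% higher and 33.7% lower. Sema5b (chromosome 16, 35541145 to 35664732, GRCm38), a transmembrane semaphorin of the developing brain, was at 0 in each of the 6 fibroblast libraries and at 706, 1771 and 3068 in miNSC (adjusted p = 3.64e-20). The NSC libraries read 3194 at passage 2, just above the miNSC range, and 1630 at passage 5, within it. Sema4g was at 16, 19 and 26 in fibroblasts and at 134, 671 and 1198 in miNSC (log2 fold change 4.58 ± 0.18, adjusted p = 4.36e-13). Sema6a and Sema6d, which can act as ligands and as receptors, rose by 3.97 ± 0.06 and 4.38 ± 0.09 on the log2 scale. Every miNSC library exceeded every fibroblast library in Sema4b, Sema4g, Sema5b, Sema6a and Sema6d.

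On the receptor side, 7 plexins were higher, 1 was lower and Plxnd1 did not pass, where 42.8% of all genes were higher and 33.7% lower. The Plxna4 call was lost with line means (adjusted p = 0.247). Plxnb1 (chromosome 9, 109095389 to 109119917), a receptor of class 4 semaphorins, was at 10, 21.5 and 54 in fibroblasts and at 1742, 2396.5 and 5540 in miNSC. Its log2 fold change was 6.90 ± 0.10 (adjusted p = 7.69e-19), and the NSC libraries were at 7802 and 4756. Plxnb3 (chromosome X, 73757090 to 73772514), a receptor reported for Sema5a, was listed at 0 in every fibroblast library and at 96, 1178 and 3165 in miNSC (adjusted p = 6.78e-14). Plxna3, a partner of neuropilins that lies 556.6 kb from Plxnb3, was at 48, 130 and 234 in fibroblasts and at 636, 980 and 1218 in miNSC, a rise of 3.02 ± 0.09 on the log2 scale. Plxna1 was the member that fell (-1.08 ± 0.10), and the groups overlapped. Both neuropilins, co-receptors of class 3 semaphorins, fell too. Nrp1 was at 751, 1308 and 2106 in fibroblasts and at 174, 276 and 601 in miNSC (log2 fold change -2.11 ± 0.08, adjusted p = 1.78e-13). Nrp2 fell by 2.06 ± 0.14 with overlapping values, since the tail-tip 4F line at passage 18 read 2224 and 1966 and the skin fibroblasts read 509 and 472.

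Slit ligands and Robo receptors went in opposite directions. Slit3 (chromosome 11, 35121224 to 35708507) had the largest fall of the tested members: the fibroblast libraries read 8896 and 8896 in tail-tip cells at 1.0 years, 5090 and 4522 in tail-tip cells at 2.5 years and 1966 and 1822 in skin cells. In miNSC its lowest, median and highest values were 0, 0 and 18, and it was listed at 0 in both NSC libraries. The log2 fold change was -11.09 ± 0.31 (adjusted p = 4.09e-15). Slit2 was at 659, 4097 and 7289 in fibroblasts and at 26, 183.5 and 626 in miNSC (log2 fold change -3.89 ± 0.16, adjusted p = 6.28e-13). The highest miNSC library, of the tail-tip KMF line, stayed just under the lowest skin library. Slit1, under the minimum for testing, read 28 and 28 in the tail-tip 4F line at passage 8, 32 and 5 in NSC and at most 9 elsewhere. The receptor Robo2 was at 49, 92 and 149 in fibroblasts and at 1120, 1632 and 2816 in miNSC, a rise of 4.19 ± 0.07 on the log2 scale (adjusted p = 2.45e-18). Robo1, its neighbour on chromosome 16 at a distance of 845.7 kb, rose by 1.66 ± 0.08 with overlapping values.

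Among netrins and their receptors, Ntn1, Ntn3 and Dcc rose and Unc5b and Unc5c fell. Ntn1 (chromosome 11, 68209364 to 68400823), the main netrin of the nervous system, was at 79, 518 and 1055 in fibroblasts and at 2432, 5540 and 7518 in miNSC. Its log2 fold change was 3.78 ± 0.07 (adjusted p = 1.63e-17), and the NSC libraries were at 3858 and 3504. Ntn3 rose by 3.13 ± 0.21 and Ntn4, a laminin-related netrin of basement membranes, gave -0.06 on the log2 scale. Dcc, the attractive netrin receptor, was at 0, 5 and 18 in fibroblasts and at 0, 261.5 and 844 in miNSC (log2 fold change 5.80 ± 0.56, adjusted p = 6.57e-08). Its overlap came from the ear 4F line, which read 0 and 44. The repulsive receptor Unc5b (chromosome 10, 60762593 to 60831581), also known from blood vessels, was at 2548, 3643.5 and 4242 in fibroblasts and at 18, 89 and 226 in miNSC (log2 fold change -5.48 ± 0.35, adjusted p = 2.53e-10). Unc5c fell by 1.37 ± 0.11 and Unc5a gave 1.08 ± 0.26, both with overlap, and the Unc5a call was lost with the mean of each line as 1 sample (adjusted p = 0.276).

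Ephrin-B ligands were lower in miNSC and ephrin-A ligands were mixed. Efnb2, a ligand of EphB receptors and of Epha4, was at 960, 1098 and 1366 in fibroblasts and at 28, 60 and 262 in miNSC (log2 fold change -4.13 ± 0.10, adjusted p = 2.98e-16). Efnb1 was at 199, 1190 and 1520 against 76, 110 and 180 and fell by 2.72 ± 0.14 (adjusted p = 2.26e-11). Among ephrin-A genes, Efna5 (-2.37 ± 0.26) and Efna1 (-1.89 ± 0.28) fell, Efna2 (1.63 ± 0.12) rose and Efna4 did not pass. Efna3 passed with 0.56 ± 0.16, which rests on the 2.5-year groups: it read 103 and 105 in tail-tip fibroblasts of 1.0 years, 18 and 24 in those of 2.5 years, 6 and 6 in skin cells and 20 to 62 in miNSC. Against the 1.0-year tail-tip cells it fell by 1.46 ± 0.27 in tail-tip miNSC, and with the mean of each line as 1 sample the pooled call was lost (adjusted p = 0.492). Efna1, Efna3 and Efna4 lie side by side on chromosome 3, 32.8 and 10.4 kb apart. All 11 tested Eph receptors passed, 6 higher and 5 lower, where 76.5% of all genes passed. The line means lost Epha4 (adjusted p = 0.0533), Ephb2 (0.121) and Ephb6 (0.399), and the matched tail-tip contrast called 8 of 11, 3 higher and 5 lower. Epha5, a receptor of the developing brain, was at 0, 34 and 88 in fibroblasts and at 480, 1218 and 2068 in miNSC (log2 fold change 6.37 ± 0.19, adjusted p = 6.47e-15). Ephb1 was at 0, 2 and 8 against 78, 146 and 382, a rise of 5.90 ± 0.27 (adjusted p = 3.51e-12). In the other direction, Epha2, a receptor of epithelia and fibroblasts, was at 586, 864.5 and 1013 in fibroblasts and at 1, 12 and 71 in miNSC (log2 fold change -6.09 ± 0.24, adjusted p = 4.74e-13). Epha1 was at 120, 156 and 186 against 0, 0 and 5 and fell by 6.75 ± 0.38 (adjusted p = 4.42e-11). Epha6 read 40 and 28 in the Sox2-GFP embryonic KMF line, 0 and 10 in the tail-tip KMF line, 0 and 6 in the tail-tip 4F line at passage 8, and 0 in every other library.

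**Figure D2:**
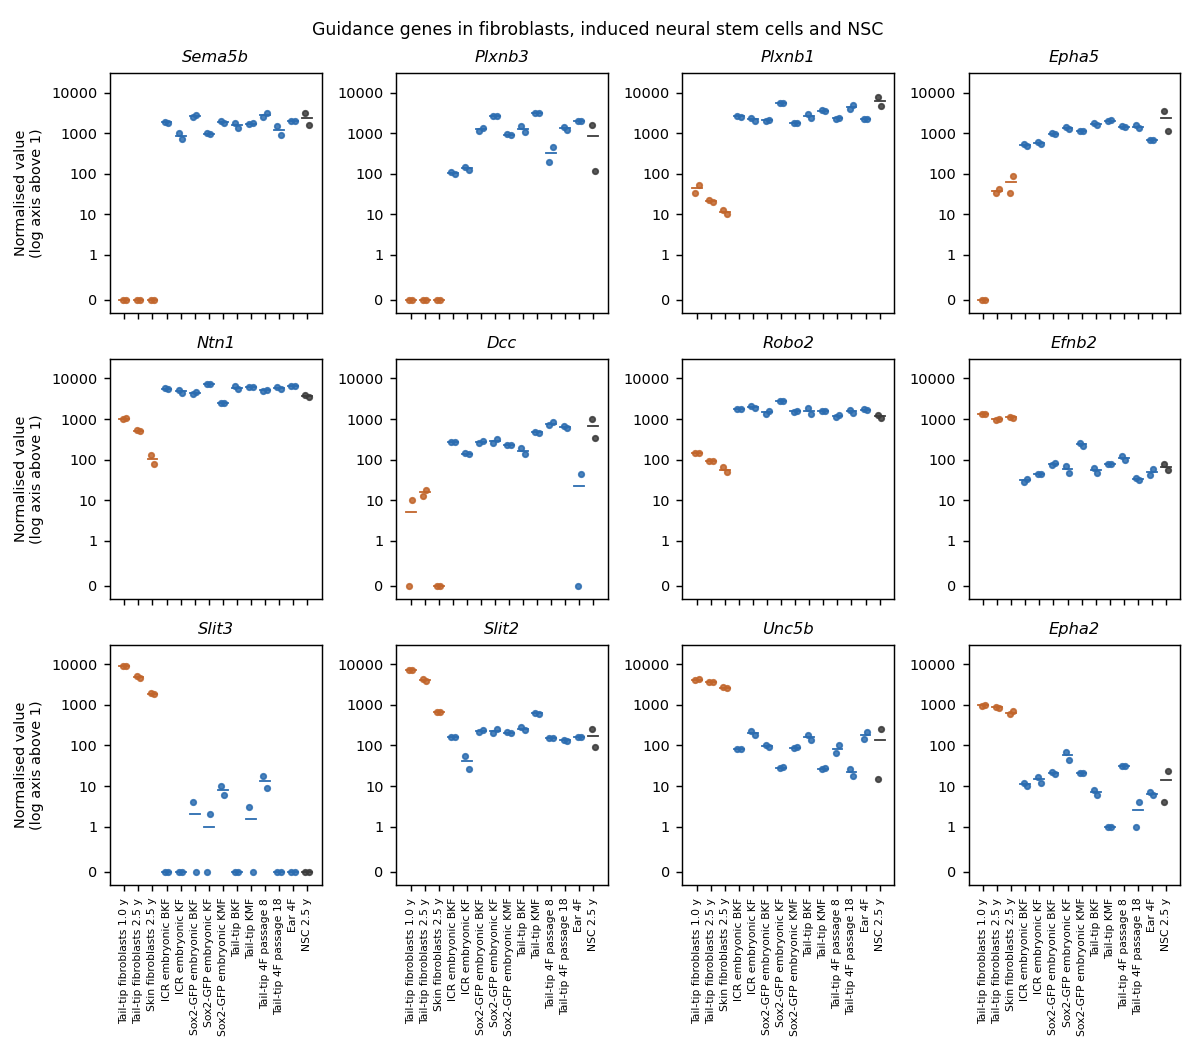
Normalised value (vertical axis, logarithmic above 1) of 12 guidance genes in each library (points) with the group mean (line), for 3 fibroblast groups (orange), 10 miNSC groups (blue) and NSC (black). Sema5b and Plxnb3 lie at 0 in all fibroblast libraries, and Slit3 lies between 1822 and 8896 there and at or under 18 elsewhere.

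The sequences before the start sites of 3 of these genes are shown because their levels followed opposite patterns. Plxnb3 was listed at 0 in fibroblasts, and Slit2 and Unc5b were high there. They come from RefSeq on GRCm38.p6 (51 of the 59 members had a window of 250 bases before the start) and are printed 5′ to 3′ up to the GENCODE start of the gene. Plxnb3 is on the plus strand at chrX:73756853-73757089, Slit2 on the plus strand at chr5:47982905-47983137 and Unc5b on the minus strand at chr10:60831582-60831831. Capitals mark matches, on either strand, of the letters searched: AACAAT and ACAAAG (each a core bound by Sox factors), the octamer ATGCAAAT (POU factors), the E-box CAGCTG, the GC box GGGCGG and GGAATG (TEAD factors).
Plxnb3: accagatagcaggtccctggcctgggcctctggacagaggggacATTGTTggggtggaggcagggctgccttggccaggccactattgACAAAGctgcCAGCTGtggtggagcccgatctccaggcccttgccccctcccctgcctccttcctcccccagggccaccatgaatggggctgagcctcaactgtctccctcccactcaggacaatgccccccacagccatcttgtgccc
Slit2: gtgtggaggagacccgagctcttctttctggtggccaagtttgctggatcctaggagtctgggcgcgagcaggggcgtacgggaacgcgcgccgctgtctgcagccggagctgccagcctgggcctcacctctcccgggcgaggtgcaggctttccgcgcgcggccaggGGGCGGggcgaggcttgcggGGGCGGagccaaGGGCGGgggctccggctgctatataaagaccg
Unc5b: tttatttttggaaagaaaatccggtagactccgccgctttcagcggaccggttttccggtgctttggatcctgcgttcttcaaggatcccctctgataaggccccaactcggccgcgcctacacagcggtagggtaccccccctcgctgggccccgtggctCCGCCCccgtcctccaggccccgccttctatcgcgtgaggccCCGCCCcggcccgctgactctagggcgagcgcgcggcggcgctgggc
The Plxnb3 run held 1 match to each Sox core and 1 to the E-box, and no GC box, with an observed to expected ratio of CpG of 0.0414. Slit2 held 3 GC boxes and a ratio of 0.825, and Unc5b held 2 GC boxes and a ratio of 0.987. Over 250 bases, the GC box was found in 38 of the 51 member windows (74.5%) and in 32.7% of all 32851 windows in the table. AACAAT was found in 2 member windows (3.92%) against 9.42% of all windows, ACAAAG in 5 (9.80% against 16.5%), CAGCTG in 7 (13.7% against 13%), GGAATG in 7 (13.7% against 12.6%), and ATGCAAAT in 0 (against 1.60%). The median GC content was 66.0% for the 25 windows of members higher in miNSC, 66.4% for the 19 of members lower and 52.4% for all windows. Median observed to expected ratios of CpG were 0.6693, 0.6831 and 0.3735 in the same order. Sema5b, also at 0 in all fibroblast libraries, held no match to any of the letters searched and had a ratio of 0.6444. A match of such letters describes the sequence and is not a measured binding site.

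For cells of a matched source, the tail-tip miNSC lines were set against the tail-tip fibroblasts of the same age. Here 49 of 57 members passed, 25 higher and 24 lower, with 66.4% of all tested genes past the threshold. The median log2 fold change was 0.37 over the members and 0.10 over all genes. Slit3 fell from 8896 in both fibroblast libraries to 3.75 ± 6.56 (n = 8), a log2 fold change of -12.15 ± 0.54 (adjusted p = 4.11e-12). Unc5b fell from 4141 ± 143 to 73.9 ± 62.4 (-6.15 ± 0.60, adjusted p = 1.14e-07) and Slit2 from 7222 ± 95.5 to 291.6 ± 207 (-4.66 ± 0.27, adjusted p = 1.75e-10). These ligands and the repulsive netrin receptor had no overlap, which held for 45 of the 57 members and 55.0% of all tested genes. Epha5, Sema5b and Plxnb3 were listed at 0 in both fibroblast libraries and averaged 1633 ± 264, 1823 ± 687 and 1516 ± 1103 in the 8 miNSC libraries. Dcc rose from 0 and 10 to between 134 and 844 (log2 fold change 6.83 ± 0.97, adjusted p = 9.32e-06). Plxnb1 rose by 6.15 ± 0.17, and Robo2 by 3.36 ± 0.12 on the log2 scale, and Ntn1 rose from 1006 and 1055 to between 5028 and 6466, again without overlap. Both neuropilins were lower in every tail-tip miNSC library than in the matched fibroblasts, Nrp1 by -2.86 ± 0.13 and Nrp2 by -2.95 ± 0.24. Ephb2, a receptor of ephrin-B ligands, Plxna2 and Unc5a were among the 8 members that did not pass. This comparison shares its miNSC libraries and 2 fibroblast libraries with the preceding contrast.

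NSC set against the same fibroblasts gave 52 of 57 members past the threshold, 32 higher and 20 lower, with 65.9% of all genes. Members had a median log2 fold change of 0.83, against 0.00 for all genes. Slit3 and Epha1 were listed at 0 in both NSC libraries. Plxnb1 was at 6279 ± 2154 against 25.7 ± 16.2 (log2 fold change 8.05 ± 0.18, adjusted p = 5.39e-16), and Sema5b averaged 2412 ± 1106. Ephb2 rose to 4077 and 5028 from 44, 871 and 911 (log2 fold change 3.76 ± 0.15). When the mean of each line or culture stood for 1 sample, NSC was left with a single value and no spread of its own. Ephb2, at a log2 fold change of 3.76, was among several members that lost their calls there. Others included Nrp2 (-2.61), Plxna2 (1.86), Robo1 (1.57) and Ntn4 (0.54).

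Between miNSC and NSC, 25 of 57 members passed, 11 higher and 14 lower in miNSC, and 40.6% of all genes. Here the median log2 fold change was 0.02 over the members and 0.03 over all genes. No overlap was seen in 5 of the 57 members and in 8.1% of all tested genes: Ephb2, Sema7a and Unc5c lower in miNSC, and Sema4b and Ntn3 higher. Ephb2 was at 260, 1157.5 and 2920 in miNSC and at 4077 and 5028 in NSC (log2 fold change -2.08 ± 0.14, adjusted p = 9.53e-09). Sema4b, a transmembrane semaphorin, was at 753, 1268.5 and 4242 in miNSC and at 346 and 326 in NSC (2.07 ± 0.13, adjusted p = 5.02e-09). Ntn3 was at 76, 129.5 and 334 against 72 and 16 (1.93 ± 0.33, adjusted p = 2.16e-04), so that its passage 2 library lay just under the lowest miNSC library. The call of Unc5c (-0.73 ± 0.17) was lost without the passage 2 library (adjusted p = 0.0659). The NSC libraries differed from each other by over 2-fold in 22 of the 57 members, where the libraries of every other group did so in 0 to 5. Over all 16275 tested genes they did so in 3141, against 787 to 1201 in the other groups. At passage 2 and passage 5 they read 1548 and 115 for Plxnb3, 3443 and 620 for Sema5a, 332 and 2401 for Plxnd1, and 15 and 254 for Unc5b. Neuron markers summed to 16310 to 33451 in miNSC and 35731 to 95085 in NSC over 7 genes, and astrocyte markers to 13103 to 32097 and 41007 to 63868 over 6 genes. Oligodendrocyte lineage markers summed to 382 to 1892 and 2047 to 4333 over 5 genes, and for these lists the part in the differences was not tested. Donor sex and cell kind cannot be told apart here either. With the mean of each line as 1 sample, NSC was left with a single value and no spread of its own, and the calls above were lost. In that fit the log2 fold change was 2.04 for Sema4b, -1.98 for Ephb2 and 1.96 for Ntn3.

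The induced lines also differed among themselves. An F test over the 10 miNSC groups passed for 49 of 57 members, with 68.2% of all tested genes. Plxnb3 ranged from 112 and 96 in the ICR BKF line and 147 and 124 in the ICR KF line to 2624 and 2682 in the embryonic KF line of Sox2-GFP mice and 3138 and 3165 in the tail-tip KMF line (range of group means 4.91 on the log2 scale, adjusted p = 8.52e-05). Both ICR lines lay below every Sox2-GFP line, and the tail-tip 4F line at passage 8, with 195 and 468, came next. Nrp2 was lowest in the Sox2-GFP embryonic KMF (74 and 76) and BKF (90 and 88) lines and highest in the tail-tip 4F line at passage 18 (range 4.78, adjusted p = 4.13e-08). Sema3f, one of its ligands, was highest in the ICR KF (236 and 191) and Sox2-GFP embryonic KMF (138 and 140) lines and lowest in the tail-tip 4F line at passage 18 with 7 and 5 (range 4.94, adjusted p = 4.42e-10). Sema5a, related to Sema5b, was at 97 and 104 in the Sox2-GFP embryonic KMF line and 130 and 100 in the ear 4F line, against 1733 and 1830 in the tail-tip 4F line at passage 18 (range 4.13, adjusted p = 2.91e-05). Ephb2 was at 290 and 260 in the Sox2-GFP embryonic KMF line and 290 and 350 in the tail-tip 4F line at passage 8, and at 2877 and 2744 in the ICR BKF and 2763 and 2920 in the Sox2-GFP embryonic KF lines. No single line was at the low or the high end of all these genes. Plxnb2 had the smallest range of the members that passed, 0.49 on the log2 scale.

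**Figure D3:**
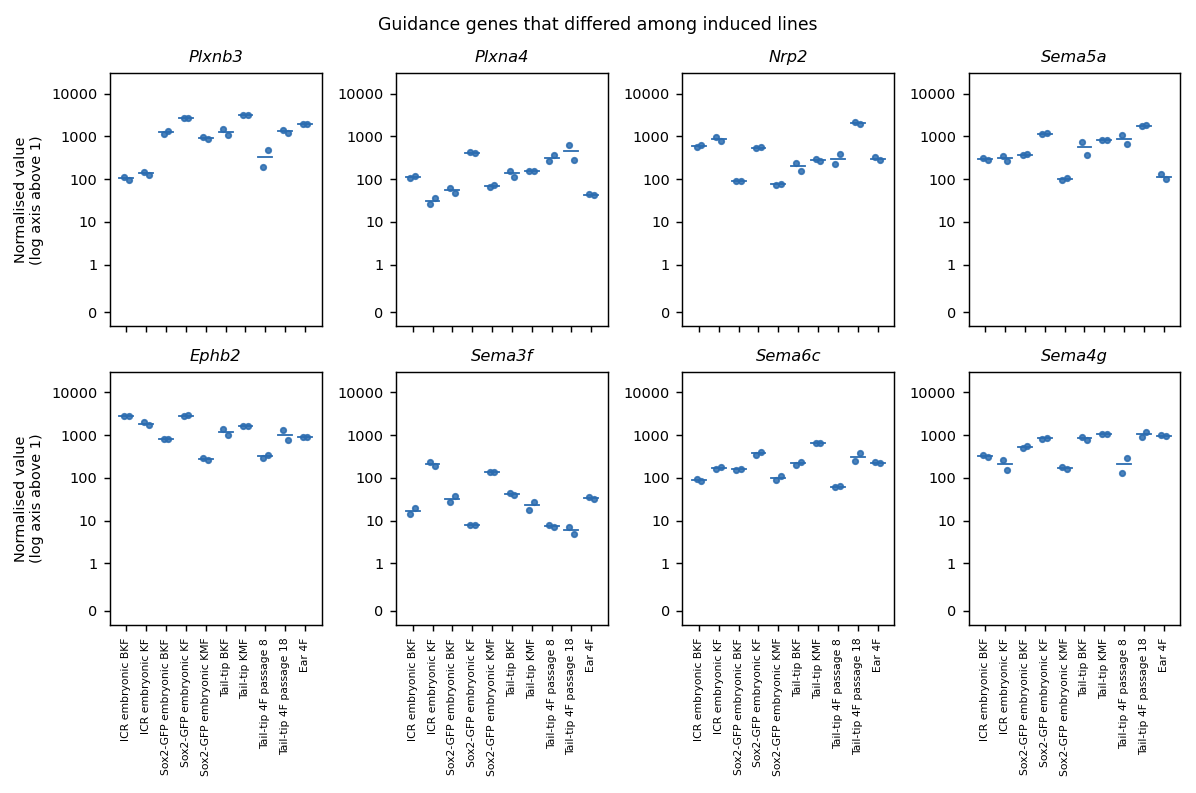
Normalised value (vertical axis, logarithmic above 1) of 8 guidance genes in the 20 miNSC libraries (points), with the mean of each of the 10 groups (line). The ICR lines lie lowest for Plxnb3, at 96 to 147, and the tail-tip 4F line at passage 18 lies highest for Nrp2, at 1966 and 2224.

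Tail-tip BKF and KMF lines were compared with the embryonic BKF and KMF lines of the same Sox2-GFP strain. Each origin held 1 line of either kind, so origin, donor age and line cannot be told apart. The origin contrast passed for 29 of 57 members, 15 higher and 14 lower in tail-tip lines, against 33.0% of all genes. Members had a median log2 fold change of 0.12, against 0.01 for all genes. Ephb2 was at 1418, 1021, 1678 and 1683 in tail-tip lines and at 828, 832, 290 and 260 in embryonic lines (log2 fold change 1.57 ± 0.13, adjusted p = 2.79e-07). Nrp2 was at 244, 156, 290 and 269 against 90, 88, 74 and 76 (adjusted p = 5.33e-05). Sema6c was at 204, 241, 664 and 659 against 156, 160, 92 and 110 (1.60 ± 0.17, adjusted p = 3.29e-06), and Sema4g rose by 1.66 ± 0.28. All 4 tail-tip libraries lay above the embryonic ones in these genes, in Ntn1 (0.89 ± 0.11) and in Slit2 (0.88 ± 0.24). Values did not overlap, in either direction, in 20 of the 57 members and in 24.3% of all tested genes. Ephb1, at 108, 112, 84 and 92 against 265, 237, 232 and 191, gave -1.22 ± 0.42 (adjusted p = 0.0336), and its call was lost without any 1 of the 8 libraries (adjusted p from 0.0584 to 0.0936). Neither Robo receptor passed.

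Adding B to KF was tested as BKF against KF in embryonic lines of both strains, each strain weighing the same. Each strain held 1 line of either kind, so factor and line cannot be told apart. The contrast passed for 22 of 57 members, 5 higher and 17 lower with B, and for 25.7% of all genes. The median log2 fold change was -0.12 over the members and 0.00 over all genes. Sema5b was higher with B in both strains, at 1872, 1822, 2445 and 2763 in BKF lines and 1010, 706, 1016 and 931 in KF lines (log2 fold change 1.27 ± 0.19, adjusted p = 1.40e-04). Sema4c was at 324, 276, 205 and 222 against 628, 712, 343 and 360 (-0.94 ± 0.10, adjusted p = 6.14e-06), and Robo2 was lower by -0.54 ± 0.10. In Sema5b, Sema4c and Robo2 the BKF and KF libraries did not overlap, which held for 7 of the 57 members and 7.9% of all tested genes.

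The difference between BKF and KF lines was not the same in the 2 strains. Its strain difference, ICR minus Sox2-GFP, passed for 22 of 57 members, 8 above and 14 below 0, and for 32.1% of all genes. Members had a median log2 fold change of -0.18, against -0.06 for all genes. Sema3f read 14 and 20 with B and 236 and 191 without it in ICR lines, but 28 and 38 with B and 8 and 8 without it in Sox2-GFP lines (difference -5.49 ± 0.33, adjusted p = 7.05e-09). Plxna4, a co-receptor of neuropilins, went the other way, 109 and 120 against 26 and 36 in ICR lines and 62 and 48 against 420 and 412 in Sox2-GFP lines (difference 4.78 ± 0.48, adjusted p = 2.02e-06). Within each strain the differences of these genes had opposite signs. Ephb4, a receptor of Efnb2, was at 362 and 338 with B and 975 and 963 without in ICR lines, and at 414 and 473 with and 192 and 170 without in Sox2-GFP lines (-2.76 ± 0.28, adjusted p = 2.52e-06). Ntn4 followed the same pattern (-2.63 ± 0.19, adjusted p = 4.82e-08). Slit2 was at 166 and 166 with B and 56 and 26 without in ICR lines but at 216, 238, 207 and 248 in the Sox2-GFP lines, with or without B (2.09 ± 0.48, adjusted p = 3.40e-03). Each strain and factor combination is 1 line here, so strain, factor and line cannot be told apart.

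**Figure D4:**
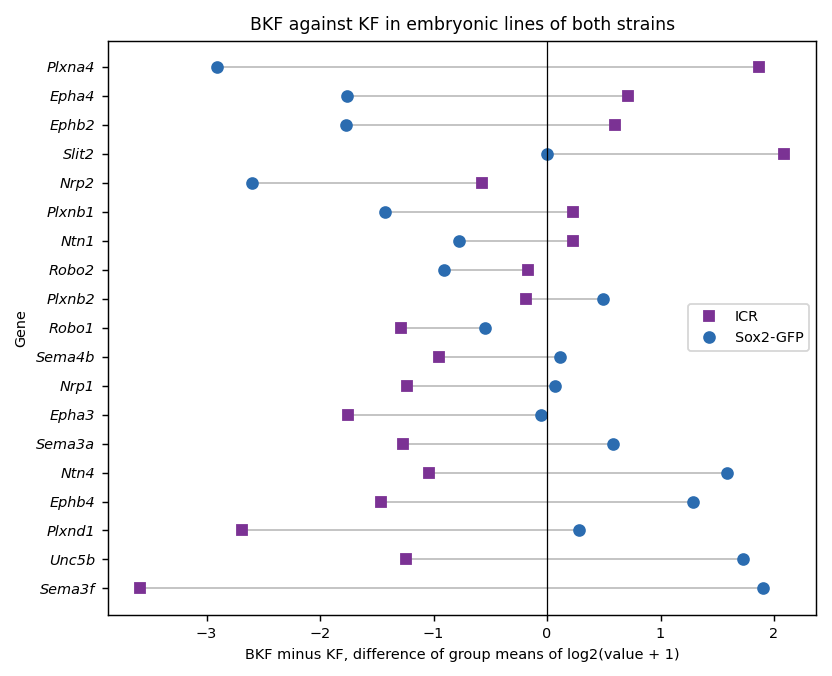
Difference between BKF and KF lines (horizontal axis, log2(value + 1) scale) in ICR (squares) and Sox2-GFP (circles) embryonic miNSC, for the 19 genes (vertical axis) whose strain difference passed and whose mean reached 100 in some group. Plxna4 lies at 1.87 in ICR and at -2.91 in Sox2-GFP lines, and Sema3f has the opposite signs.

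Across BKF and KF together, ICR and Sox2-GFP embryonic lines differed in 25 of 57 members, 8 higher and 17 lower in ICR, with 38.4% of all genes. Here the median log2 fold change was -0.14 over the members and 0.00 over all genes. Plxnb3 was at 96 to 147 in the 4 ICR libraries and at 1144, 1346, 2624 and 2682 in the Sox2-GFP libraries (log2 fold change -3.93 ± 0.51, adjusted p = 2.01e-05). Efna2, an ephrin-A ligand, was at 114, 100, 98 and 82 against 44, 44, 45 and 42 (1.14 ± 0.18, adjusted p = 1.36e-04). Slit2 (-1.49 ± 0.24), Sema4g (-1.38 ± 0.28) and Epha5 (-1.06 ± 0.28) were lower in ICR without overlap. Values of the strains did not overlap in 12 of the 57 members and in 19.9% of all tested genes. The libraries of this contrast are those of the B comparison, and strain and line cannot be told apart here either.

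Adding M to KF in Sox2-GFP embryonic cells compared 2 lines of 2 libraries, so factor and line cannot be told apart. In this contrast 25 of 57 members passed, 12 higher and 13 lower with M, and 39.1% of all genes. Members had a median log2 fold change of -0.08, against 0.00 for all genes. Sema5a was at 97 and 104 with M and 1132 and 1176 without (log2 fold change -3.51 ± 0.51, adjusted p = 5.45e-05). Ephb2 was at 290 and 260 against 2763 and 2920 (-3.37 ± 0.19, adjusted p = 2.65e-09) and Nrp2 at 74 and 76 against 532 and 558 (-2.84 ± 0.30, adjusted p = 2.35e-06). Plxnb1 read 1742 in both KMF libraries and 5540 in both KF libraries (-1.67 ± 0.22, adjusted p = 1.66e-05). The first 3 of these are a semaphorin and receptors of ephrin-B and class 3 semaphorin ligands. The ligands Sema3f (138 and 140 against 8 and 8, 3.96 ± 0.24, adjusted p = 5.34e-09), Efnb2 (262 and 214 against 68 and 48, 2.03 ± 0.20, adjusted p = 1.27e-06) and Ntn4 (676 and 682 against 217 and 204, 1.69 ± 0.13, adjusted p = 9.95e-08) were higher with M. Ntn1 fell from 7518 and 7289 to 2488 and 2432 (-1.59 ± 0.15) and Nrp1 rose from 244 and 256 to 572 and 601 (1.23 ± 0.17). The neuropilins therefore changed in opposite directions between these lines.

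The tail-tip 4F line changed between passages 8 and 18. In that contrast 21 of 57 members passed, 10 higher and 11 lower at passage 18, with 35.1% of all genes. The median log2 fold change was -0.04 over the members and 0.03 over all genes. Nrp2 was at 2224 and 1966 at passage 18 and at 224 and 380 at passage 8 (log2 fold change 2.84 ± 0.30, adjusted p = 4.55e-06). Sema4b was at 2964 and 4242 against 753 and 876 (2.12 ± 0.18, adjusted p = 4.27e-07), Sema6c at 244 and 387 against 60 and 64 (2.29 ± 0.24, adjusted p = 4.24e-06) and Sema4c at 620 and 600 against 202 and 246 (1.45 ± 0.14, adjusted p = 2.08e-06). Ephb2 rose from 290 and 350 to 1294 and 763 (1.64 ± 0.19) and Sema4g from 134 and 300 to 886 and 1198 (2.35 ± 0.39). Efnb2 fell from 120 and 99 to 36 and 32 (-1.65 ± 0.20, adjusted p = 1.79e-05), Sema5b from 2548 and 3068 to 1520 and 883 (-1.27 ± 0.27) and Sema3a from 2106 and 1786 to 1248 and 1013 (-0.79 ± 0.10). Plxnb3, at 195 and 468 against 1418 and 1212 (2.11 ± 0.72, adjusted p = 0.0316), lost its call without either passage 18 library or without the first passage 8 library (adjusted p = 0.113, 0.0929 and 0.230). With only these 2 groups in the fit, 7 members passed, and the calls of Ephb2 (adjusted p = 0.0773), Ephb3 (0.0569), Plxnb1 (0.0522), Plxnb3 (0.102), Plxnc1 (0.0676) and Sema4g (0.0836) were among those lost. The 35.1% of all genes belongs to the fit of all 28 libraries and is no background for that count.

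Among fibroblasts without factors, age and site of origin were compared. Tail-tip fibroblasts of 2.5 and 1.0 years differed in 14 of 57 members, 4 higher and 10 lower at 2.5 years, against 11.0% of all genes. Members had a median log2 fold change of -0.20, against 0.01 for all genes. Ntn1 was at 529 and 507 at 2.5 years and at 1006 and 1055 at 1.0 years (log2 fold change -0.99 ± 0.15, adjusted p = 5.60e-04). Efna3 was at 18 and 24 against 103 and 105 (-2.27 ± 0.34, adjusted p = 5.37e-04), and Ntn4 was at 250 and 262 against 466 and 408 (-0.77 ± 0.13, adjusted p = 1.62e-03). Without the second library of either group, 7 members passed. With only these groups in the fit, 22 passed. The 11.0% of all genes belongs to the fit of all 28 libraries and is no background for these smaller fits. The donors also differed in sex-linked expression, with Xist at 21805 in both 2.5-year libraries and at 0 in both 1.0-year libraries and Ddx3y at 0 and 0 against 3953 and 4040, so age and sex of the donors cannot be told apart here.

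Skin fibroblasts differed from tail-tip fibroblasts of the same age in 30 of 57 members, 5 higher and 25 lower in skin, with 26.6% of all genes past the threshold. Here the median log2 fold change was -0.75 over the members and 0.00 over all tested genes. Ephb2 was at 48 and 44 in skin and at 894 and 880 in tail-tip cells (log2 fold change -4.24 ± 0.19, adjusted p = 4.85e-11). Plxna2, a receptor of class 6 and class 3 semaphorins, was at 67 and 79 against 652 and 664 (-3.16 ± 0.24, adjusted p = 3.92e-08). Slit2 was at 672 and 659 against 4242 and 3952 (-2.62 ± 0.34, adjusted p = 2.34e-05) and its receptor Robo1 at 107 and 98 against 524 and 473 (-2.27 ± 0.18, adjusted p = 5.70e-08). Ligand and receptor were thus both lower in skin cells. Efnb1 (236 and 199 against 1332 and 1048), Ntn1 (130 and 79 against 529 and 507) and Nrp2 (509 and 472 against 2150 and 1994) were lower as well. Sema3a was at 2130 and 2092 against 944 and 1032 (1.10 ± 0.10, adjusted p = 5.92e-07), Sema3d rose by 0.97 ± 0.12 and Ephb3 was at 728 and 755 against 204 and 248 (1.72 ± 0.21, adjusted p = 1.12e-05). 

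**Figure D5:**
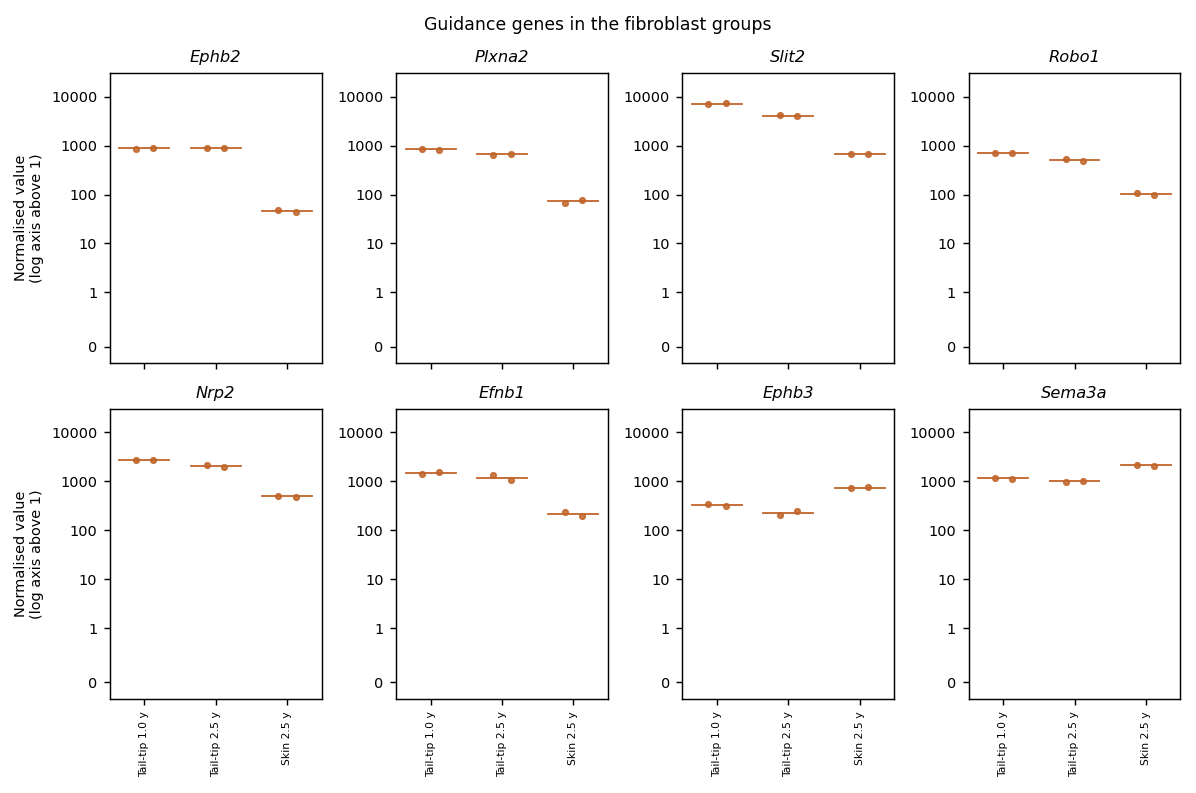
Normalised value (vertical axis, logarithmic above 1) of 8 guidance genes in the 6 fibroblast libraries (points), with the mean of each group (line). Ephb2, Plxna2, Slit2, Robo1, Nrp2 and Efnb1 are lowest in skin fibroblasts, and Ephb3 and Sema3a are highest there.

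Partners of the guidance receptors, namely co-receptors, other cues and intracellular effectors outside the families above, were counted from a list of 62 genes, of which 60 were tested. Between miNSC and fibroblasts 55 of 60 passed, 34 higher and 21 lower, against 76.5% of all genes. Dpysl5, a cytoplasmic mediator of semaphorin signals in neurons, averaged 0.167 ± 0.408 in fibroblasts and 585 ± 195 in miNSC, a rise of 8.94 ± 0.18 on the log2 scale, and Dscam, a netrin co-receptor, averaged 4.67 ± 3.72 and 321 ± 235 (5.80 ± 0.24). Mical1, an actin-oxidising effector of plexins, averaged 557 ± 174 in fibroblasts and 2.85 ± 5.40 in miNSC (-8.09 ± 0.17), and the chemokine Cxcl12 averaged 2534 ± 716 and 88.3 ± 49.4 (-5.42 ± 0.09). Between tail-tip lines and matched fibroblasts 52 partners passed, 31 higher and 21 lower (all genes 66.4%), and between NSC and fibroblasts 56, with 37 higher and 19 lower (all genes 65.9%). Between miNSC and NSC 40 passed, 12 higher and 28 lower (all genes 40.6%), and Dscaml1, a relative of Dscam, gave -4.55 ± 0.53. Among the miNSC groups 54 passed (all genes 68.2%). The count was 32 for origin (21 higher, 11 lower, all genes 33.0%) and 18 for adding B (3 higher, 15 lower, all genes 25.7%). It was 30 for the strain difference of B (17 above and 13 below 0, all genes 32.1%), 28 for strain (12 higher, 16 lower, all genes 38.4%) and 34 for adding M (14 higher, 20 lower, all genes 39.1%). For passage it was 29, with 16 higher and 13 lower (all genes 35.1%), and Draxin, a secreted ligand of Dcc, was at 5282 ± 55.9 at passage 18 and 406 ± 436 at passage 8 (4.31 ± 0.64, adjusted p = 9.20e-05). For fibroblast age it was 18 (10 higher, 8 lower, all genes 11.0%) and for skin against tail-tip 27 (10 higher, 17 lower, all genes 26.6%).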

How the data were processed

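RNA-seq of 28 mouse libraries in 14 groups was used. The deposited values are whole numbers per gene and library whose unit no label names, here treated as a normalised score by the authors. Per the submitters' processing notes, RSEM, Bowtie2 2.0 and mm10 were used, and the normalisation step is not given in the sources used here. Some values recurred across genes and libraries. Plxnb1 read 5540 in both Sox2-GFP embryonic KF libraries, and so did Ntn1 in a library of the ICR BKF line. Equal readings in both libraries of a group therefore need not mean equal abundance. Every gene was tested with limma 3.58.1 in R 4.3.3 on log2(value + 1), in 1 fit of all 28 libraries with a term per group. Genes averaging 10 or more were kept (16275), variances were moderated with a mean trend, and p-values were adjusted by Benjamini-Hochberg over all of them at a threshold of 0.05. A contrast of several groups weighs each group equally. Tables and figures were made with Python 3.11.15, pandas 2.3.3, numpy 2.4.6 and matplotlib 3.10.9. The fit was tested on simulated data. Its power is limited in contrasts of 2 against 2 libraries, so members that did not pass there may still differ. No libraries held identical values.

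Gene positions are from GENCODE M21 (GRCm38). Strandedness of the counting is not given in the sources used here, and Plxnb1 overlaps an antisense gene, so its reads cannot be told apart from that gene's. The members, the partner list and the marker lists were chosen with earlier results of these data known. The naming rule took up to 4 members per family and comparison with the largest absolute log2 fold change among members called without overlap and averaging 100 or more in some group. From these the text gives a selection, and it and the other members named were picked after their values were seen. The alternatives were a pseudocount of 8, a minimum mean of 100 or none, quantile normalisation, a robust variance prior, only the groups compared, a replicate block, each library left out, and the mean of each of 13 lines or cultures as 1 sample. Since medians and totals were already nearly the same in every library, quantile normalisation may have changed little, so agreement under it is weak support.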

Additional observations from a re-analysis of the deposited data

Results flagged for a closer look

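The difference between BKF and KF lines was not the same in ICR and Sox2-GFP embryonic cells in 22 members and in 32.1% of all genes. This is the interaction term of the limma fit (ICR difference minus Sox2-GFP difference, log2 scale). Each combination is 1 line, so strain, factor and line cannot be told apart. The 19 with a mean of 100 or more in some group are given here. Ligands were Sema3f (-5.49), Ntn4 (-2.63), Sema3a (-1.86) and Sema4b (-1.07), with Slit2 (2.09) and Ntn1 (1.01) in the other direction. Receptors below 0 were Unc5b (-2.98), Plxnd1 (-2.97), Ephb4 (-2.76), Epha3 (-1.70), Nrp1 (-1.30), Robo1 (-0.74) and Plxnb2 (-0.67). Receptors above 0 were Plxna4 (4.78), Epha4 (2.48), Ephb2 (2.37), Nrp2 (2.03), Plxnb1 (1.66) and Robo2 (0.74). The neuropilins differed in opposite directions. The Unc5b call was lost without any 1 of the 8 libraries (adjusted p from 0.0701 to 0.106) and with the replicate block (0.0516). The Robo1 call was lost without any 1 of 6 of them (0.0684 to 0.135), and the Robo2 call without the second ICR KF library (0.0507) or the first Sox2-GFP BKF library (0.0556).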

How the results depend on the processing

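Of the counts of called members under all alternatives, 222 were within 1.5 times the reported count and 6 were not. With only the groups compared in the fit, passage 18 against 8 gave 7 members and tail-tip fibroblasts of 2.5 against 1.0 years gave 22. Shares of all genes given with these contrasts belong to the fit of all 28 libraries. With the mean of each line as 1 sample, which left NSC with a single value, the counts of NSC against fibroblasts and of miNSC against NSC were also outside that range. The cause was not tested beyond the smaller number of samples these fits hold. Leaving out 1 library gave 7 to 11 members for tail-tip fibroblast age, where the lowest count came without the second library of either age. It gave 51 to 51 for miNSC against fibroblasts, 45 to 50 for tail-tip lines, 48 to 53 for NSC against fibroblasts, 24 to 31 for miNSC against NSC, 47 to 49 among lines, 23 to 25 for origin, 16 to 18 for adding B, 18 to 20 for its strain difference, 21 to 23 for strain, 18 to 22 for adding M, 15 to 24 for passage and 22 to 25 for skin. Of 212 single-gene results, 169 kept their call in every alternative, 43 lost it at least once and 0 reversed.

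Replicate numbers showed no pairing of the samples. The difference between the first and second library was taken in each of 13 groups, with NSC left out. Over the 78 pairs of these groups, the correlation of that difference ran from -0.055 to 0.071. With a replicate block, miNSC against fibroblasts gave 51 members and 2 of the 212 calls were lost, Unc5b in the strain difference (adjusted p = 0.0516) and Sema6a in fibroblast age (adjusted p = 0.0609). Depth is unknown, so low values have no stated counting error.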
